A study of Arabidopsis thaliana with 10 samples.

Results

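The set named here 60S ribosomal proteins L21 to L40 holds 21 proteins of the large subunit of the cytosolic ribosome, without L29 and L39. Arabidopsis thaliana encodes each of the 21 by several paralogous genes. The rule gathered 56 of the 32824 genes in the deposited table, by their locus codes. The genes were chosen by protein name, but the rise of ribosomal protein transcripts in these same libraries was already known. Their differences between the genotypes are therefore given as a description. Transcripts were measured by RNA-seq in shoots of 5 wild-type samples of the accession Col-0 (WT) and 5 samples of a transgenic line (OE) in which the viral 35S promoter, active in most plant cells, drives BnaC02.TPS8. This oilseed rape (Brassica napus) gene belongs to the trehalose-6-phosphate synthase family. All plants grew for 10 days on half-strength Murashige and Skoog agar with sucrose under what the labels call normal conditions, and the design text calls the nitrogen supply sufficient. The sample titles name the line OE-11 and the design text O2, so that 1 transgenic line was sampled and its name is unclear. The labels name no separate cultures for the replicates, so the spread behind each p-value may be technical.

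Large-subunit proteins surround the ribosomal RNA that joins amino acids, and each is needed in 1 copy per ribosome. The proteins described here lie at the mouth of the tunnel through which the new chain leaves, at the face that meets the small subunit, and elsewhere in the particle. Plant ribosomal protein genes kept paralogues from genome duplications, and single mutants often show pointed leaves and slow growth. The share of each paralogue in the transcript pool of its protein is therefore a measure of its own, which the common rise of the transcripts does not enter.

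The sequences before 8 of the genes are shown because the values below turn on these paralogues. They are the L36 trio, which holds the largest difference, and the L27 gene with the smallest. The others are AT1G69620 and AT1G26880, the more abundant of the 3 L34 genes, and the L40 pair. In L34 and L40 the share of the most abundant gene differed without overlap between the genotypes, though neither passed the adjusted test described below. Each sequence is the 150 bases just before the annotated gene start in the RefSeq annotation of TAIR10.1, 5′ to 3′ on the strand of the gene. Capitals mark the telo box AAACCCTA and the site II elements TGGGCC and TGGGCT, known elements of ribosomal protein promoters in Arabidopsis, read on both strands.
L36, AT2G37600, chr2:15775375-15775524, minus strand: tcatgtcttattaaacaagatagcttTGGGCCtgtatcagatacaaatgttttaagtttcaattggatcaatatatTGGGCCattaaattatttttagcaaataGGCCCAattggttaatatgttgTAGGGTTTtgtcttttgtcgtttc
L36, AT3G53740, chr3:19915067-19915216, minus strand: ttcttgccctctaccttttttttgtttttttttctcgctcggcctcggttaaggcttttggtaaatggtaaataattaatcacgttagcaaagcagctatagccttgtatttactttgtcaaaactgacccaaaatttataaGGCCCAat
L36, AT5G02450, chr5:532908-533057, plus strand: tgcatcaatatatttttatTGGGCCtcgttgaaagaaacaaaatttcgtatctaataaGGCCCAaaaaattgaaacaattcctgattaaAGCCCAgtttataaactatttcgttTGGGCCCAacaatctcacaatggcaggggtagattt
L34, AT1G69620, chr1:26189625-26189774, plus strand: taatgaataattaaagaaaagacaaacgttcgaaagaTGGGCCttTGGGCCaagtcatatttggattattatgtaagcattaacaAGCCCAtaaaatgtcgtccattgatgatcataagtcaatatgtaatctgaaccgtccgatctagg
L34, AT1G26880, chr1:9318278-9318427, minus strand: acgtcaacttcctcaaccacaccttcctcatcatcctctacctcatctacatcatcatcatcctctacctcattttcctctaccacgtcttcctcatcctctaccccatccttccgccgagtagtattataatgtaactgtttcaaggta
L40, AT3G52590, chr3:19505229-19505378, plus strand: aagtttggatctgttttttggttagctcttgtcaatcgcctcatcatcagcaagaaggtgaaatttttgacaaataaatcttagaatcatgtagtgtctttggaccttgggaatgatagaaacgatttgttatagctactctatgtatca
L40, AT2G36170, chr2:15171911-15172060, plus strand: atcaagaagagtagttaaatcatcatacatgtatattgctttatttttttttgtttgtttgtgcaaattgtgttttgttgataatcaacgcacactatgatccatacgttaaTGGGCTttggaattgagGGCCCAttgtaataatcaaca
L27, AT4G15000, chr4:8571666-8571815, plus strand: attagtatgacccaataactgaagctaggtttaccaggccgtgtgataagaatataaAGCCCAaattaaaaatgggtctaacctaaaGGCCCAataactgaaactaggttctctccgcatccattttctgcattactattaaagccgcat

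Of the 56 genes, 52 were detected, and 4 were listed at 0 in all 10 libraries. The 52 detected genes averaged 11.9 to 825 FPKM over the libraries (fragments per kilobase of transcript, relative to the fragments in the library), with a median of 273 FPKM, and all passed the filter of a mean of at least 1 FPKM. Fragment counts are not in the table. The step between the low values of a library put its depth at 1.83e+07 to 2.33e+07 fragments, which gives a detected gene 63 to 15559 fragments in a library with a median of 3310. Counting error alone is then about 1.74% of the value at that median and 12.6% at the lowest value. In these bulk samples, fewer cells of a type and less RNA per cell cannot be told apart.

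Libraries differed in ways that touch these genes. The plastid genome gave 0.552 to 4.28% of the summed FPKM in WT and 0.442 to 2.90% in OE. The 6 shoot markers (photosynthesis genes) summed to 71348 to 84014 FPKM in WT and 72183 to 83471 in OE. One of them passed as higher, the Rubisco small-subunit gene RBCS1B (AT5G38430), with a log2 difference of 0.42 (limma adjusted p = 0.0148). The 6 root markers summed to at most 1.31 FPKM, with 1 of the 6 at 0 in all libraries. The 10 markers of dividing cells, in which ribosomal protein genes are also strongly expressed, summed to 107 to 163 FPKM in WT and 135 to 163 in OE, with none past the threshold and a median log2 difference of 0.14. Their part in the differences below was not tested.

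The genes took 1.22 to 1.57% of the summed FPKM of a WT library and 1.74 to 2.01% of an OE library. Their summed level was 14522, 13667, 11411, 14281 and 13079 FPKM in WT replicates 1 to 5 and 17701, 18674, 16431, 18239 and 18926 FPKM in OE replicates 1 to 5. Every OE library lay above every WT library, with replicate 3 the lowest in both groups. In limma on log2(FPKM + 1) with Benjamini-Hochberg adjustment over all 17713 tested genes, 50 of the 52 detected genes were higher in OE at an adjusted p under 0.05 and none was lower. Over all tested genes 2.37% were called higher and 0.525% lower. Nothing is read from these counts, since the contrast was known when the genes were chosen. In 50 of the 52, every OE library lay above every WT library, as it did in 4.41% of all tested genes. The median log2 difference was 0.44 over the 52 genes and 0.00 over all tested genes, and the middle 50% of the 52 lay between 0.40 and 0.47, against -0.10 and 0.12 for all tested genes. The SD of the 52 differences was 0.07. The standard error of a single difference, with a median of 0.08, also holds shifts that the genes of a library share, so the 2 values are not to be compared.

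**Figure D1:**
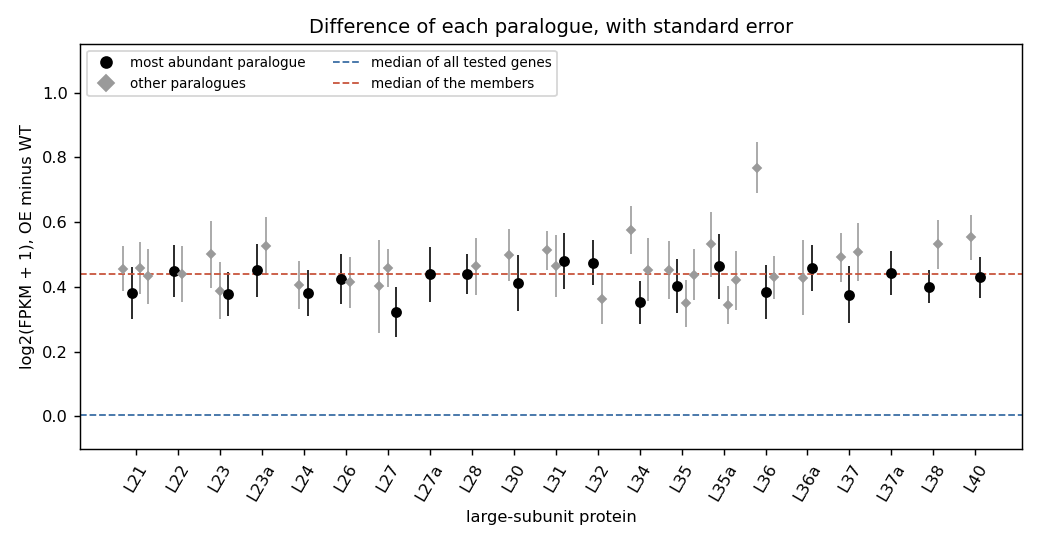
Difference between OE and WT in log2(FPKM + 1) for each of the 52 detected paralogues, by protein, with the standard error of the limma fit as bars. Black circles are the most abundant paralogue of each protein, grey diamonds the others, and dashed lines the medians of the 52 genes (0.44) and of all tested genes (0.00). A reader should see a band from 0.32 to 0.57 with 1 gene above it, AT2G37600 of L36 at 0.77.

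How many genes passed leaned on single libraries. The 52 gave 21 calls without OE replicate 2 and 31 without OE replicate 4. Leaving out a WT library instead gave 29 calls for replicate 2 and 32 for replicate 5. Of the 50 called genes, 20 passed whichever library was left out. When WT replicates 2 and 4 and OE replicate 4, the 3 with the most plastid RNA, were all dropped, a setting chosen after seeing the data, limma passed 0 of the 52 and 0 genes in all, although 51 of the 52 had an unadjusted p under 0.05 and their median log2 difference was 0.48. Under every setting run, each of the 52 genes was higher in OE.

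Summed over paralogues, all 21 proteins were higher in every OE library than in any WT library, and the ratio of the group means ran from 1.27 for L27 to 1.39 for L31 with a median of 1.35. Of all tested single genes, 4.41% were higher in this way, and no such share was computed for sums. The sums hold genes chosen with the contrast known that move together within a library, so the 21 are not separate observations. Sums ranged over the proteins from 285 FPKM for L27a to 976 for L21 in WT, and from 386 for L27a to 1308 for L21 in OE. The coefficient of variation of the sums over the 21 proteins was 26.4% in WT and 25.5% in OE. The proteins kept nearly the same order in both genotypes, with a Spearman correlation of the group means of 0.99 over the 21 proteins, which share the same libraries.

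**Figure D2:**
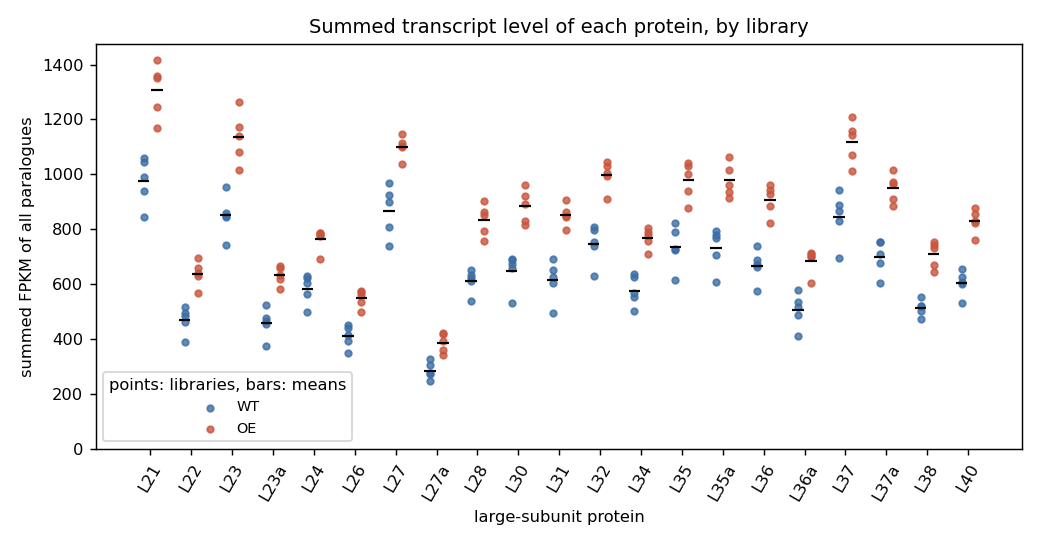
Summed FPKM of all paralogues of each of the 21 proteins on a linear axis from 0, with 1 point for each of the 5 WT (blue) and 5 OE (red) libraries and a bar at the mean. In each protein the red points lie above the blue ones, from L27a (285 FPKM in WT, 386 in OE) to L21 (976 in WT, 1308 in OE).

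Around the tunnel exit lie L23a, L26, L31 and L35. L23a and L35 form the docking site of factors that meet the new chain, such as the signal recognition particle. All 11 genes of these 4 proteins passed, with log2 differences of 0.35 to 0.53 and a median of 0.45. Over all tested genes 2.37% were called higher. Nothing is read from this count or from those of the groups of proteins below. RPL23AA (AT2G39460), whose loss alters leaf shape in Arabidopsis, gave 370.0 ± 43.2 FPKM in WT and 504 ± 30.4 in OE (SD, n = 5), with a log2 difference of 0.45. Its partner RPL23AB (AT3G55280), the second gene of L23a, gave 88.9 ± 12.0 FPKM in WT and 128 ± 7.87 in OE, a log2 difference of 0.53. AT3G49910 of L26 gave 319 ± 32.5 and 427 ± 25.6 FPKM, AT5G56710 of L31 gave 357 ± 44.9 and 495 ± 26.8 FPKM, and AT3G09500 of L35 gave 447 ± 49.4 and 589 ± 45.7 FPKM.

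AT3G55170, the least abundant of 4 paralogues of L35, had the third smallest difference of the 52 genes. It measured 56.8, 55.9, 48.2, 62.7 and 57.1 FPKM in WT replicates 1 to 5 and 69.1, 72.3, 66.5, 75.2 and 74.8 FPKM in OE. The groups did not overlap, and the log2 difference was 0.35 (SE 0.07; limma adjusted p = 0.0264).

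At the face that meets the small subunit lie L23, L24 and L30. L23 carries the binding site of the factor eIF6, which keeps the subunits apart, and L24 and L30 form bridges to the small subunit. All 7 detected genes of these proteins passed, with log2 differences of 0.38 to 0.50 and a median of 0.41. AT3G04400 of L23 gave 517 ± 45.9 FPKM in WT and 670.4 ± 42.8 in OE (SD, n = 5). Its transcript is the leading one of 3 that encode the same protein sequence. STV1 (AT3G53020) of L24, known in Arabidopsis for re-starting translation after short upstream reading frames, gave 365 ± 34.4 and 474 ± 25.4 FPKM, a log2 difference of 0.38. AT3G18740 of L30 gave 352 ± 35.0 and 469 ± 46.9 FPKM.

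L36a, L37, L37a and L40 are small proteins with zinc-binding motifs, and 7 of their 8 detected genes passed, with a median log2 difference of 0.45. AT3G60245, the only detected gene of L37a, was the second most abundant of all in WT with 699.9 ± 62.1 FPKM, and gave 949.7 ± 51.5 in OE (SD, n = 5). AT1G52300 of L37 gave 631 ± 77.1 and 815 ± 63.4 FPKM. AT4G14320 of L36a gave 282 ± 27.4 and 387 ± 20.2 FPKM, a log2 difference of 0.46.

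Its partner AT3G23390, which encodes the same L36a protein sequence, was 1 of the 2 genes that did not pass. It measured 259, 236, 163, 238 and 222 FPKM in WT replicates 1 to 5 and 304, 310, 251, 313 and 315 FPKM in OE. Replicate 3 was the lowest library of both groups, and OE replicate 3 lay below WT replicate 1. The log2 difference was 0.43 (SE 0.12; limma adjusted p = 0.0824).

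L40 is made as a fusion with ubiquitin, the tag for protein breakdown, and is cut free after translation. UBQ1 (AT3G52590) measured 516, 478, 423, 491 and 479 FPKM in WT replicates 1 to 5 and 637, 668, 579.9, 646 and 685 FPKM in OE. AT2G36170, which encodes the same fusion sequence, measured 139.8, 130.1, 108, 134 and 123 FPKM in WT and 186, 186, 179.8, 184 and 194 FPKM in OE. In both genes the groups did not overlap. The log2 differences were 0.43 (SE 0.06; limma adjusted p = 0.00793) and 0.55 (SE 0.07; limma adjusted p = 0.00775), the latter the third largest of the 52.

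The other 10 proteins were L21, L22, L27, L27a, L28, L32, L34, L35a, L36 and L38, a group not defined by a shared place in the ribosome. Of their 26 detected genes 25 passed, with a median log2 difference of 0.44. The leading genes of the first 3 were AT1G09690 of L21 at 415 ± 36.1 FPKM in WT against 541 ± 50.6 in OE, AT3G05560 of L22 with 297 ± 29.96 and 405 ± 32.1 FPKM, and AT4G15000 of L27 (SD, n = 5). AT4G15000 had the highest mean of the 52 in WT, 700.1 ± 81.8 FPKM, and the smallest difference. AT3G60245 of L37a was almost level with it in WT, at 699.9 ± 62.1 FPKM, with a log2 difference of 0.44.

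AT4G15000 measured 786, 726, 588, 755 and 645 FPKM in WT replicates 1 to 5 and 877, 865, 829, 877 and 906 FPKM in OE. The groups did not overlap, and WT replicate 1 lay closest to the OE libraries. The log2 difference was 0.32 (SE 0.08; limma adjusted p = 0.0488). The call was lost in 9 of the 10 fits that left out a single library, with a limma adjusted p of up to 0.116. It was also lost with no filter, after quantile normalization and with organelle genes left out of the scaling.

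AT2G32220, another L27 gene, was the least abundant of the detected genes and the other that did not pass. It measured 14.6, 10.9, 9.13, 8.17 and 8.15 FPKM in WT replicates 1 to 5 and 14.1, 15.9, 12.1, 12.6 and 12.97 FPKM in OE. Only WT replicate 1 reached into the OE range. The log2 difference was 0.40 (SE 0.14; limma adjusted p = 0.202), and its standard error was the largest of the 52. Without WT replicate 1, AT2G32220 passed, with a log2 difference of 0.53 and a limma adjusted p of 0.0274, and with any other single library left out the limma adjusted p was at least 0.223.

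Further leading genes of this last group were AT1G70600 of L27a and AT2G19730 of L28. AT1G70600 gave 285 ± 31.03 FPKM in WT against 386 ± 35.1 in OE (SD, n = 5). An altered form of L27a disturbs shoot and ovule development in Arabidopsis. AT2G19730 gave 409.8 ± 23.98 and 556 ± 39.9 FPKM, and budding yeast lacks L28. AT4G18100 of L32 gave 374 ± 33.6 and 519 ± 31.5 FPKM. AT1G41880 of L35a, a protein whose human gene is mutated in some patients with Diamond-Blackfan anaemia, gave 314 ± 46.0 and 429.9 ± 29.8 FPKM. AT2G43460 of L38, a protein needed in mice to translate part of the Hox mRNAs, gave 281 ± 13.3 and 371 ± 17.6 FPKM, with the smallest standard error of the 52 genes (log2 difference 0.40, SE 0.05; limma adjusted p = 0.00775).

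Among the 4 paralogues of L35a, AT1G74270 had the second smallest difference of all 52 genes. It measured 182, 169.5, 172, 169 and 166 FPKM in WT replicates 1 to 5 and 209, 227, 199.6, 215 and 243 FPKM in OE. The WT libraries differed little, replicate 3 included, and the groups did not overlap (log2 difference 0.34, SE 0.06; limma adjusted p = 0.0120). After median-ratio scaling the call was lost, with a limma adjusted p of 0.0517.

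The largest difference belonged to AT2G37600, the least abundant of 3 L36 genes. It measured 68.7, 73.7, 56.7, 74.0 and 62.3 FPKM in WT replicates 1 to 5 and 112, 112, 109, 114 and 125 FPKM in OE. The lowest OE library lay well above the highest WT library, and the log2 difference was 0.77 (SE 0.08; limma adjusted p = 0.00770), against 0.57 for the next gene. The paralogues AT3G53740, at 342 ± 34.01 FPKM in WT against 446 ± 38.3 in OE, and AT5G02450, at 258 ± 20.5 and 347 ± 21.6 FPKM (SD, n = 5), had log2 differences of 0.38 and 0.43. Of the 3 sequences printed for L36, that of AT2G37600 holds a telo box 24 bases before the gene start, and the other 2 hold site II elements only.

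AT1G26880 of L34 had the second largest difference. It measured 153, 137, 117, 142 and 128 FPKM in WT replicates 1 to 5 and 212, 209.6, 182, 199 and 204 FPKM in OE, without overlap (log2 difference 0.57, SE 0.07; limma adjusted p = 0.00775). RPL34 (AT1G69620), the leading L34 gene, measured 421, 370.4, 339, 418 and 368 FPKM in WT and 489.96, 514, 461, 483 and 493 FPKM in OE, also without overlap (log2 difference 0.35, SE 0.07; limma adjusted p = 0.0162).

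Within each genotype the 52 genes moved together from library to library. WT replicate 3 was the lowest WT library for 47 of the 52 genes and OE replicate 3 the lowest OE library for 44. On the log2(FPKM + 1) scale the genes lay on average 0.22 below their group mean in WT replicate 3 (SD over genes 0.09) and 0.13 above it in WT replicate 1. In OE replicate 3 all 52 genes lay below their group mean, by 0.13 on average (SD over genes 0.05). A common shift of each library accounted for 67.3% of the variance of the 52 genes within the genotypes. The estimated depth of the 2 libraries was 2.17e+07 and 2.33e+07 fragments, and the dividing-cell markers summed to 107 FPKM in WT replicate 3, the lowest of all libraries, and 158 FPKM in OE replicate 3. Their part in the shift was not tested. The genes of a library are thus not independent measurements, and the 50 calls are not 50 separate observations.

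**Figure D3:**
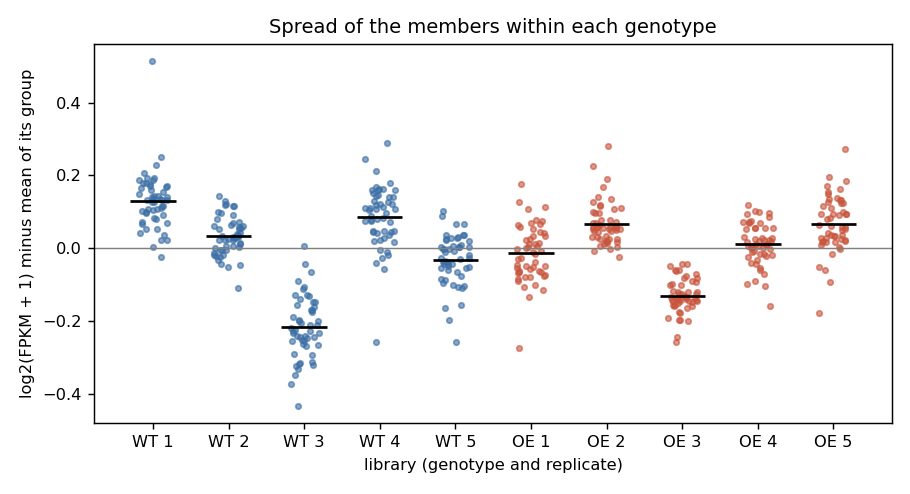
Deviation of each of the 52 detected genes (points) from the mean of its genotype, in log2(FPKM + 1), for the 5 WT (blue) and 5 OE (red) libraries, with black bars at the mean over genes. Nearly all points of WT replicate 3 (mean -0.22) and all points of OE replicate 3 (mean -0.13) lie below 0.

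Shares of paralogues within a protein ask whether the copies moved unequally, independent of their common rise. For 19 proteins with at least 2 detected genes, the share of the most abundant paralogue in the protein sum was tested by exact permutation of the 10 libraries between the groups (two-sided), which cannot give a p below 0.00794. With Benjamini-Hochberg adjustment over the 19 proteins, 0 passed and the smallest adjusted p was 0.0754. Even a protein at the smallest possible p could pass only with several others at similarly small p. The 0 is therefore no sign that the shares stayed equal. An unadjusted p under 0.05 was found for 6 proteins (L21, L27, L34, L36, L38 and L40). That number was 4 without WT replicate 2 and 3 without OE replicates 1 or 2 (one at a time) or WT replicate 4, and it was 2 without the 3 libraries of most plastid RNA. L34 and L40 were among them in each of these settings. The share of the leading paralogue was lower in OE in 14 of the 19 proteins. The changes were small: the differences ran from -3.01 to 1.92 percentage points.

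L34 had the largest shift. RPL34 (AT1G69620) made up 66.3, 65.5, 67.6, 67.1 and 66.5% of the L34 sum in WT replicates 1 to 5 and 62.0, 64.0, 64.8, 63.8 and 63.4% in OE. The groups did not overlap, and the difference was -3.01 percentage points (SE 0.59; exact permutation p = 0.00794, adjusted p = 0.0754). For L40, UBQ1 (AT3G52590) made up 78.7, 78.6, 79.7, 78.6 and 79.5% in WT and 77.4, 78.2, 76.3, 77.9 and 77.9% in OE. The groups again did not overlap, with a difference of -1.49 points (SE 0.41; exact permutation p = 0.00794, adjusted p = 0.0754). These 2 of the 19 proteins were the ones without overlap. Neither passed the adjusted threshold, which 2 proteins at the smallest possible p cannot reach by themselves.

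For L36, AT3G53740 held 51.3 ± 1.06% in WT and 49.1 ± 1.68% in OE (SD, n = 5), which is -2.15 points (SE 0.89; exact permutation p = 0.0476, adjusted p = 0.151). For L38, AT2G43460 held 54.7 ± 1.10% and 52.4 ± 1.63% (difference -2.27 points, SE 0.88; exact permutation p = 0.0476, adjusted p = 0.151). For L27, AT4G15000 held 80.7 ± 0.942% and 79.2 ± 0.649%, and for L21, AT1G09690 held 42.5 ± 0.376% and 41.3 ± 0.948%. The widest rise was that of AT4G18100 in L32, from 50.2 ± 1.11% to 52.1 ± 1.90% (exact permutation p = 0.0873, adjusted p = 0.237).

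**Figure D4:**
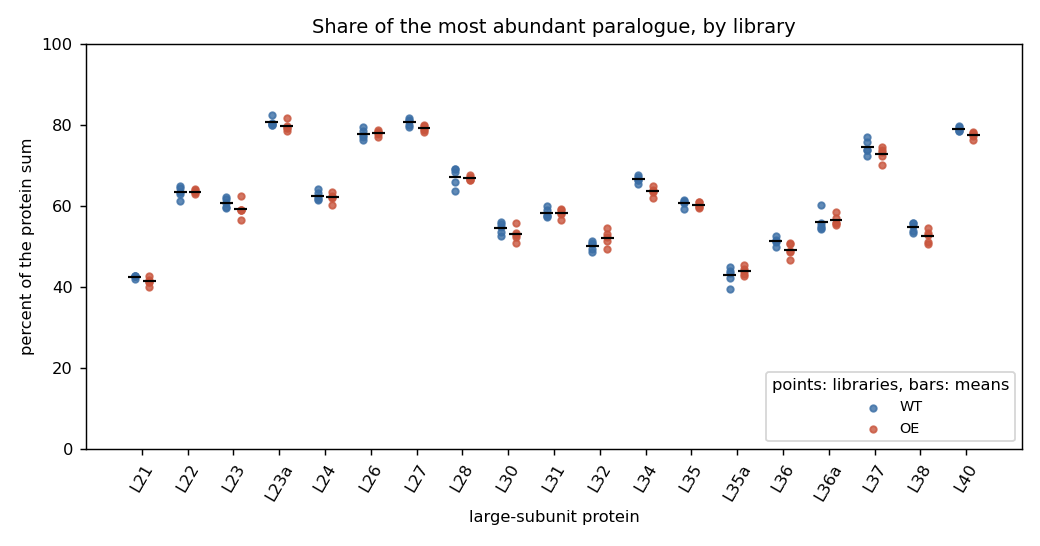
Share of the most abundant paralogue in the summed FPKM of its protein, in percent, for the 19 proteins with at least 2 detected genes, with 1 point per library and a bar at the mean of the 5 WT (blue) and 5 OE (red) libraries. Shares differ far more between proteins than between genotypes. In WT they run from 42.5% for L21 to 80.7% for L27. The widest gap between genotypes is that of L34 (66.6% in WT, 63.6% in OE).

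The differences per gene were also set beside the level of the gene. Over the 52 genes the log2 difference had a Spearman correlation of -0.37 with the mean level and -0.15 with the coding length, as a description across genes that share the 10 libraries. The leading paralogue had the smallest log2 difference in 12 of the 19 proteins, the largest in 4 and one in between in 3. The median log2 difference was 0.42 for the 21 most abundant paralogues and 0.46 for the 31 others, and this gap was not tested.

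Near-identical paralogues limit these values, since fragments from shared stretches can be split between copies. Over the 52 pairs of paralogues, the coding sequences were 70.0 to 99.2% identical with a median of 84.6%, and 8 pairs had the same translation. In 3 pairs a stretch of at least 100 bases was the same: AT1G57660 and AT1G57860 of L21 (209 bases), AT1G09590 and AT1G09690 of L21 (122 bases), and AT1G41880 and AT3G55750 of L35a (110 bases). The values of these 6 genes, the shares of L21 and L35a included, are uncertain for that reason. The L34 genes RPL34 (AT1G69620) and AT1G26880 were 85.7% identical and the L40 pair 89.7%, with longest shared stretches of 20 and 32 bases. RPL34 shared a stretch of 35 bases with the other detected L34 gene, AT3G28900 (80.2% identical). AT2G19730 of L28 and AT2G19740 of L31 lie 156 bases apart on chromosome 2 on the same strand, so that fragments near their ends may be hard to assign.

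The 4 genes listed at 0 were AT1G02830 of L22, AT1G23290 (RPL27AB) of L27a, AT1G36240 of L30 and AT3G10950 of L37a. Genes that code for the same proteins were abundant in the same libraries, and a value of exactly 0 in a table without counts can be a failed estimate, so no more is said than that they are listed at 0. The first 60 coding bases are shown for 3 of them beside the most alike detected paralogue, as the pairs show how much sequence could tell the copies apart. Capitals mark the bases that differ.
L27a, AT1G23290, listed at 0: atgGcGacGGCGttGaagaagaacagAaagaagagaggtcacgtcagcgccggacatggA
L27a, AT1G70600: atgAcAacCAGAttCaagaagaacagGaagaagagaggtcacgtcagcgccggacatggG
L30, AT1G36240, listed at 0: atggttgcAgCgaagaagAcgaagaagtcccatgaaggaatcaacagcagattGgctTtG
L30, AT3G18740: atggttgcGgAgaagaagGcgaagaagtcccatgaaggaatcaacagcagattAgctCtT
L37a, AT3G10950, listed at 0: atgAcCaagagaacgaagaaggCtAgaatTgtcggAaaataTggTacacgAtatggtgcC
L37a, AT3G60245: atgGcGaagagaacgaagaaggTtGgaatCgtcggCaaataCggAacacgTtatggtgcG
Over the whole coding sequence these pairs were 91.8%, 89.1% and 80.6% identical, with longest shared stretches of 56, 34 and 21 bases. AT1G02830 was the most distant member of its protein, at 70.3% identity to AT5G27770.

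The genes shared promoter letters that the rule did not use. In the 250 bases before the gene start, a telo box (AAACCCTA on either strand) was found in 13 of the 56 genes (23.2%), against 4.49% of all 27443 protein-coding genes of the annotation. A site II element (TGGGCC or TGGGCT on either strand, with matches that overlap counted separately) was found in 34 of the 56 (60.7%), against 19.2% of all protein-coding genes, and at least 2 such matches in 28 of the 56 against 12.0% of all. Among the 16928 protein-coding genes with a mean of at least 1 FPKM, 3.69% held a telo box and 23.9% a site II element. Of the 52 detected genes, 19.2% held a telo box and 59.6% a site II element. Related genes held the motifs too: a telo box was found in 40% of the 10 genes of L29, L39 and L41 and in 23.8% of 21 genes for 60S assembly and export factors, and a site II element in 90% and 57.1%. Neither motif was found in 33.9% of the 56, against 77.7% of all. With the first 50 bases of the gene added to the window, a telo box was found in 41.1% of the 56 and in 6.22% of all protein-coding genes. The 20 detected genes with a telo box in this wider window had a median log2 difference of 0.44 and a range of 0.38 to 0.77, and the 32 without had a median of 0.44 and a range of 0.32 to 0.57. In the sequences printed above, UBQ1 (AT3G52590) and AT1G26880 hold no match, while their partners AT2G36170 and RPL34 (AT1G69620) hold site II elements. A match is a description of letters and no evidence of binding.

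**Figure D5:**
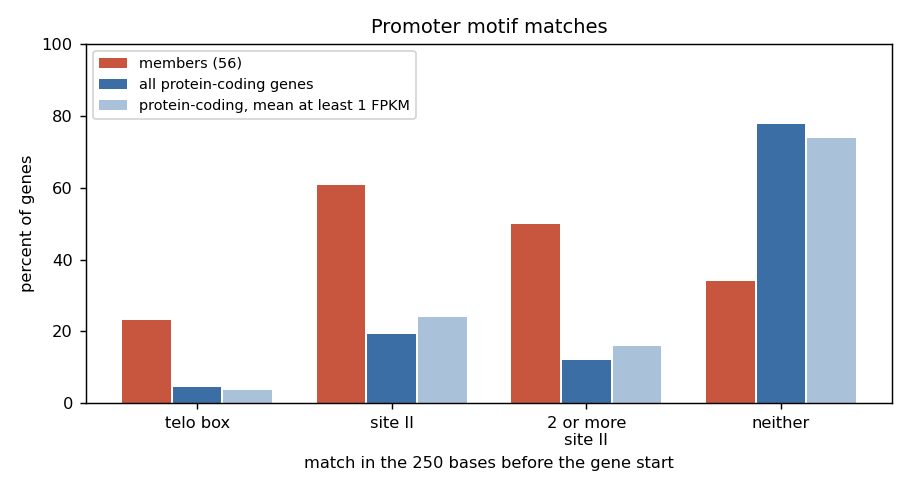
Percent of genes with a telo box, a site II element, at least 2 site II matches or neither motif in the 250 bases before the gene start, for the 56 genes (red), all protein-coding genes (blue) and protein-coding genes with a mean of at least 1 FPKM (light blue). The red bars stand at 23.2% and 60.7% for the single motifs and 33.9% for neither, and the blue bars at 4.49%, 19.2% and 77.7%.

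Neighbouring genes of the pathway give a frame for these values. The other small large-subunit proteins L29, L39 and L41 have 10 genes, of which 5 passed as higher and none as lower, with a median log2 difference of 0.54. Their sum was 1302 to 1523 FPKM in WT and 1890 to 2155 in OE, without overlap. Of all tested single genes, 2.37% were called higher and 4.41% had every OE library above every WT library. No such share was computed for sums. Of 20 tested genes for factors that assemble the 60S subunit and export it from the nucleus, 6 passed as higher and none as lower, with a median log2 difference of 0.30. That count rested on single libraries: it was 2 without WT replicate 5 or without any one of OE replicates 1 to 4, 3 without WT replicate 2 or OE replicate 5, and 4 without WT replicate 1 or 3. It was also 2 with organelle genes left out of the scaling and 3 with no filter.

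Ubiquitin genes are given by their partner. The 3 genes that fuse ubiquitin to the small-subunit protein S27a passed, with log2 differences of 0.35 for AT3G62250, 0.42 for AT2G47110 and 0.65 for AT1G23410 (limma adjusted p = 0.0167, 0.00978 and 0.0331). Only 1 of them passed without OE replicate 2, and 1 without OE replicate 4, and 2 passed when WT replicate 2, 3, 4 or 5 or OE replicate 1 was left out on its own. None of the 5 polyubiquitin genes, which encode ubiquitin repeats without a ribosomal protein, passed, and their log2 differences lay between -0.16 for AT5G03240 and 0.09 for AT5G20620. The 2 fusions with L40, described above, gave 0.43 and 0.55. Of all tested genes, 2.37% were called higher, and differences between these kinds of ubiquitin gene were not tested.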

How the data were processed

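The deposited table gives 1 FPKM value per gene and library, scaled by the authors to transcript length and library total. Trimmomatic 0.36, kallisto 043.1, sleuth, FastQC and R 3.5.1 are named, without roles, in the submitters' processing notes. The genome build is not given in the sources used here. Groups follow the sample labels. The genes, lists and tests were chosen with earlier results of these data known. limma 3.58.1 (R 4.3.3, moderated variances with a mean trend) was fitted to log2(FPKM + 1) of 17713 genes with a mean of at least 1 FPKM, and log2 differences understate changes of low genes. Identifiers matched RefSeq TAIR10.1 for 32539 of 32824 genes, which supplied coordinates and sequences. For each protein the transcript nearest to the median coding length was used. Depth assumed fragments of 200 nt. Named genes were the most abundant paralogue of each protein, the 3 largest and 3 smallest differences, and genes listed at 0. Others were named after their values were seen. Scripts were tested on simulated data. Over all tested genes, same-numbered samples did not all deviate together (a correlation over 0.1 in 2 of 5 pairs), so no block was used.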

Additional observations from a re-analysis of the deposited data

Results flagged for a closer look

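In a group of 5, a library was singled out where its gap to the nearest other library exceeded 0.71 of the range of the group, a rule that chance meets in about 1 of 20 groups. It was met in 10 of the 184 groups examined, near the number that chance gives for independent groups. These groups are not independent, since the same genes enter the sums and shares and move together within a library. Most of the flags fell on WT replicate 3 or OE replicate 3. Among the genes, OE replicate 3 was low for AT3G23390 of L36a (251 FPKM, others 304 to 315), WT replicate 3 was low for AT5G27770 of L22 (136 FPKM, others 177 to 191) and for AT1G77940 of L30 (235 FPKM, others 298 to 319), and OE replicate 5 was high for AT2G37600 of L36 (125 FPKM, others 109 to 114). Among the protein sums, OE replicate 3 was low for L24 (693 FPKM, others 775 to 788) and L36a (604 FPKM, others 699.8 to 712), and WT replicate 3 was low for L30 (529 FPKM, others 657 to 691). Among the paralogue shares, that of AT1G09690 in L21 was low in WT replicate 4 (41.9%, others 42.6 to 42.8%), that of AT2G39460 in L23a was high in WT replicate 5 (82.5%, others 79.9 to 80.4%), and that of AT4G14320 in L36a was high in WT replicate 3 (60.3%, others 54.2 to 55.6%).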

How the results depend on the processing

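Over 18 settings, 17 of them planned, each of the 52 genes stayed higher in OE. The 512 genes called in all (50 of the 52) ranged from 207 to 536 (21 to 50) with single libraries left out, and the 14 called genes of the 3 further lists from 8 to 14. Of the 52, 43 passed with no filter, 44 after quantile normalization and 45 with organelle genes left out of the scaling. After median-ratio scaling 48 passed, and 50 passed with log2(FPKM + 0.1) or with a filter at 5 FPKM. With the replicate block 781 genes passed, 51 of the 52 among them. The gene gained was AT3G23390 of L36a (limma adjusted p = 0.0119). Same-numbered samples correlated at -0.09 to 0.20, and 2 of the 5 WT libraries correlated best with their own number. Without the 3 libraries of highest plastid RNA, chosen after seeing the data, 0 genes passed, 0 of the 52 and 0 of the lists, with 4 libraries of OE against 3 of WT. No share passed in any setting. This says nothing of stability for the sign flips over a replicate block, which cannot give a p below 0.0625, and little for the setting without the 3 libraries, where no p can be below 0.0286. It also says little for the other settings. No permutation p there was below 0.00794, and a share could pass only with several proteins at similarly small p. For 5 proteins whose shares differed least, leaving out single libraries turned the sign of the difference, which ran from -0.375 to 0.536 percentage points for L22, -0.702 to 0.0446 for L24, -0.256 to 0.543 for L26, -1.21 to 0.137 for L28 and -0.272 to 0.405 for L31. For L31 it was 0.293 without the 3 libraries named above. The median log2 ratio of the protein sums, 0.44, lay between 0.37 and 0.46 with single libraries left out. The median log2 difference of the 52 genes, also 0.44, was 0.35 after quantile normalization.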
